A study of Mus musculus with 4 samples.

Results

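The cells described here are the duodenal crypt cells that the authors' per-cell tables name GOBLET. They were taken by that name alone and matched by library and barcode to the deposited matrices. They numbered 717 of 15234 kept cells, beside 3791 cells named GOBLET-PRE, the name closest to them. GOBLET cells numbered 163 in WT replicate 1, 270 in WT replicate 2, 28 in APC-KO replicate 1 and 256 in APC-KO replicate 2.

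All 4 libraries were 10x Genomics 3' single-cell libraries of living, reporter-positive crypt cells from mouse duodenum. The WT mice carried Atoh1CreER-T2 and R26RTom, and the APC-KO mice carried Atoh1Cre, Apcfl/fl and R26RTom in the sample labels, while the series description gives the driver of both as Atoh1CreER-T2. Mice of both genotypes received 2 doses of tamoxifen (1 mg/mL) 24 h apart, and crypts were taken 12 h after the second. Because Cre was driven from Atoh1, a gene of secretory cells, both the reporter and the deletion were aimed at that lineage, and the sort kept reporter-positive cells. The labels give no animal, age or sex for a library, so differences between libraries may be in part technical. With 2 libraries a group, p-values rest in large part on a spread that the fit shares between genes. A very small p-value is therefore not a measure of how alike the libraries of a group were.

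Goblet cells make and store mucus. They build the gel-forming mucin Muc2 in the endoplasmic reticulum, coat it with O-linked sugars in the Golgi, pack it into granules with smaller proteins such as Zg16, Clca1, Fcgbp and Tff3, and release the granules into the gut lumen. They arise from Atoh1-positive progenitors in the crypt and mature as they move up, and the transcription factors Spdef and Klf4 are known to act in this process. Apc holds back Wnt signalling, which keeps crypt progenitors dividing.

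The markers of the name are described first. The names were given from the expression of the same cells, so high markers do not test the name. Zg16 is a lectin-like granule protein that binds bacteria, Clca1 a metalloprotease of the mucus layer, Gsta1 a glutathione transferase, Ido1 the enzyme that breaks down tryptophan to kynurenine, and S100a6 a calcium-binding protein. All 5 supplied markers were higher in GOBLET than in GOBLET-PRE in each library. Muc2, Fcgbp, Clca1, Zg16 and Tff3 were higher in GOBLET than in each of the 11 other names, averaged over libraries. Agr2 and Spink4, also goblet genes, were not. Agr2 was highest in GOBLET-PRE and Spink4 in PANETH-PRE, and both were lower in GOBLET than in GOBLET-PRE. Markers of other cells were low. The 12 stromal and endothelial markers summed to between 0 and 0.708 UMIs per 1e6 of the sum (CPM), with 11 of the 12 at 0. The 14 immune markers summed to between 1.23 and 11.2 CPM, with Cd3e and Cd79a among 7 at 0. The 18 tuft cell markers summed to between 14.7 and 16.3 CPM, against 7649 to 12667 CPM in cells named TUFT. The 24 Paneth cell markers in the files summed to between 3296 and 7663 CPM, against 379780 to 581374 CPM in cells named PANETH, and to between 17350 and 57721 CPM in barcodes with 1 to 50 UMIs, which hold free RNA. The part of free RNA or of doublets in these levels was not tested.

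APC-KO replicate 1 stood apart. It had 356 kept cells against 3821 to 6243 in the others, and its GOBLET cells had a median of 4.63% mitochondrial UMIs against 2.10% to 2.31%. Their median was 6906 UMIs and 1987.5 genes, against 3624 to 5252 UMIs and 1108 to 1328.5 genes in the other libraries. Several results are given with and without this library. Between 1 and 8 barcodes were shared by any pair of libraries, none of them between GOBLET cells.

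Promoters of 5 interferon-response genes described below are shown, chosen among those that hold the motif searched, as the 150 bases before the start site, 5′ to 3′ on the gene's strand, from RefSeq (GRCm38.p6). Capitals mark GAAA, any 2 bases and GAAA again or, on the other strand, TTTC, any 2 bases and TTTC, the core of the element that interferon-activated factors are known to bind. Isg15, Ifit1, Rsad2 and Ddx60 differed in the interaction of genotype and stage, and Gbp2 was higher in GOBLET in every library. The windows lie at chr4:156200819-156200968 on the minus strand for Isg15, chr19:34640739-34640888 on the plus strand for Ifit1, chr12:26456453-26456602 on the minus strand for Rsad2, chr8:61927937-61928086 on the plus strand for Ddx60 and chr3:142620513-142620662 on the plus strand for Gbp2.
Isg15: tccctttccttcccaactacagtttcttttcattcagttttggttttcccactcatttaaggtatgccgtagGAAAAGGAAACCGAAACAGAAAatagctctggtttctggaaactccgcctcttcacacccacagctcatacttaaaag
Ifit1: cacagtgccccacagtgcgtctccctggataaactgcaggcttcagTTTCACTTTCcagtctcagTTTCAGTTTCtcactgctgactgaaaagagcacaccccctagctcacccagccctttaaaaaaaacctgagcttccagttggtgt
Rsad2: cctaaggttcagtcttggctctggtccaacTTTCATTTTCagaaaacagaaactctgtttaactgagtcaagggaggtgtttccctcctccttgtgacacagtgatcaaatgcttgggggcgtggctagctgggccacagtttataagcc
Ddx60: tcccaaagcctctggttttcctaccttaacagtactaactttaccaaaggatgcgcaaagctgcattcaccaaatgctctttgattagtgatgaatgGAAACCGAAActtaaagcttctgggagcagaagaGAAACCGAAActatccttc
Gbp2: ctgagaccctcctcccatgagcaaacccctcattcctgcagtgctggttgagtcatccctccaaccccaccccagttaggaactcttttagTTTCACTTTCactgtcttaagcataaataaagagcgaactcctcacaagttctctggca
Matches were counted in the full RefSeq windows, from 250 bases before to 50 after the start. At least 1 match lay in a window of 16 of the 27 interferon-stimulated genes found in the table, of 38 in the list, which is 59.3%. The share was 3.99% over all 27025 genes listed by RefSeq and 3.44% over all 32851 windows. Within the 150 bases shown, Isg15 had 3 overlapping matches, Ifit1 and Ddx60 had 2 each, and Rsad2 and Gbp2 had 1 each. Of the 13 genes with an interaction call, 12 were in the table and 7 had a match in the full window (58.3%). In the 150 bases before the start, Herc6, Slfn5 and 1 of the 2 windows of Trim30a, which are not shown, had none. A match is a run of letters and not a measured site.

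The first comparison asked how mature goblet cells differ from GOBLET-PRE cells. A few mucus genes took a much larger share of the RNA in GOBLET. Zg16 took 23.9%, 30.6%, 17.1% and 20.4% of the GOBLET UMIs in the order WT replicate 1, WT replicate 2, APC-KO replicate 1, APC-KO replicate 2, which is used throughout. The 10 most abundant genes of each library took between 44.3% and 51.5% of its GOBLET UMIs, against 19.7% to 23.2% in GOBLET-PRE. Genes per cell were fewer in GOBLET in each library, with medians of 1328, 1328.5, 1987.5 and 1108 against 1835, 2060, 2755.5 and 1505 in GOBLET-PRE. The cells were also shallower, with medians of 4904, 5252, 6906 and 3624 UMIs against 5311, 5747, 10214 and 3996, and the part of depth in the number of genes was not tested.

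Such dominance lowers the share left to other genes. TMM scaling of edgeR, which sets the typical gene near 0, raised GOBLET against GOBLET-PRE by 0.51, 0.68, 0.15 and 0.38 on the log2 scale relative to plain CPM. In plain CPM the median gene was lower in GOBLET by a log2 difference of -0.55, -0.71, -0.28 and -0.42. Log2 differences below are TMM-scaled unless named as plain CPM, and levels are plain CPM. A gene was counted as higher or lower when its difference was at least 2-fold in the same direction in each of the 4 libraries. These counts carry no p-value, because the names were given from the expression of the same cells. The supplied markers Zg16, Clca1, Gsta1, Ido1 and S100a6 are also counted within the gene lists that hold them.

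Of 8006 genes, 217 were higher in GOBLET (2.71%) and 285 lower (3.56%). In plain CPM the counts were 100 higher and 625 lower. Without APC-KO replicate 1 they were 324 and 369 of 9248 genes. The largest differences among well-measured genes were in Ido1, Sectm1b, Lgals3, Muc3 and Ptgdr on the higher side and Thbs1, Atf3, Cyr61, Tgif1 and Rcn1 on the lower side.

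Mucus granule proteins together took 431201, 469033, 399398 and 418143 CPM of GOBLET, against 204160, 182397, 207315 and 206791 CPM of GOBLET-PRE. Within the list the genes did not move alike, and 4 of 25 tested were higher and 2 lower. Zg16 (ENSMUSG00000049350, chr7:127050156-127087328, minus strand) had 239015, 305984, 171196 and 203915 CPM in GOBLET and 55790, 60352, 53752 and 44836 CPM in GOBLET-PRE. The stages did not overlap, and the log2 difference was 2.50 (SE 0.25). Clca1 (ENSMUSG00000028255, chr3:145003817-145032776, minus strand) had 12726, 17588, 18188 and 14850 CPM against 5465, 8651, 6435 and 5220 CPM, a log2 difference of 1.74 (SE 0.19). Muc2 had 15898, 15176, 21013 and 15582 CPM against 9145, 8271, 8025 and 8786 CPM. Its log2 difference was 1.40 (SE 0.19), and in plain CPM it was 0.97 and no longer at least 2-fold in every library. Muc3, a mucin anchored in the membrane, had a low level of 83.8, 55.9, 88.1 and 41.8 CPM against 5.11, 2.58, 2.25 and 4.64 CPM, and cells named ENTERO-PRO had a mean of 84.8 CPM.

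Fcgbp, a large protein that binds Muc2, and Tff3, a trefoil peptide of mucosal repair, were above GOBLET-PRE in each library without reaching 2-fold in all, at log2 differences of 1.20 (SE 0.21) and 1.37 (SE 0.22). Agr2, the disulfide isomerase needed to fold Muc2, lay the other way. It had 10677, 11985, 6058 and 5038 CPM in GOBLET and 19576, 22591, 17094 and 10276 CPM in GOBLET-PRE. Spink4, a small secreted peptide, had 11844, 6922, 9843 and 16452 CPM against 26981, 13539, 28854 and 39562 CPM. Both genes were below GOBLET-PRE in every library, at log2 differences of -0.65 (SE 0.20) and -0.82 (SE 0.21). Ccl9, a chemokine, and Retnlb, a secreted antibacterial protein, were lower at -2.39 and -2.22.

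**Figure D1:**
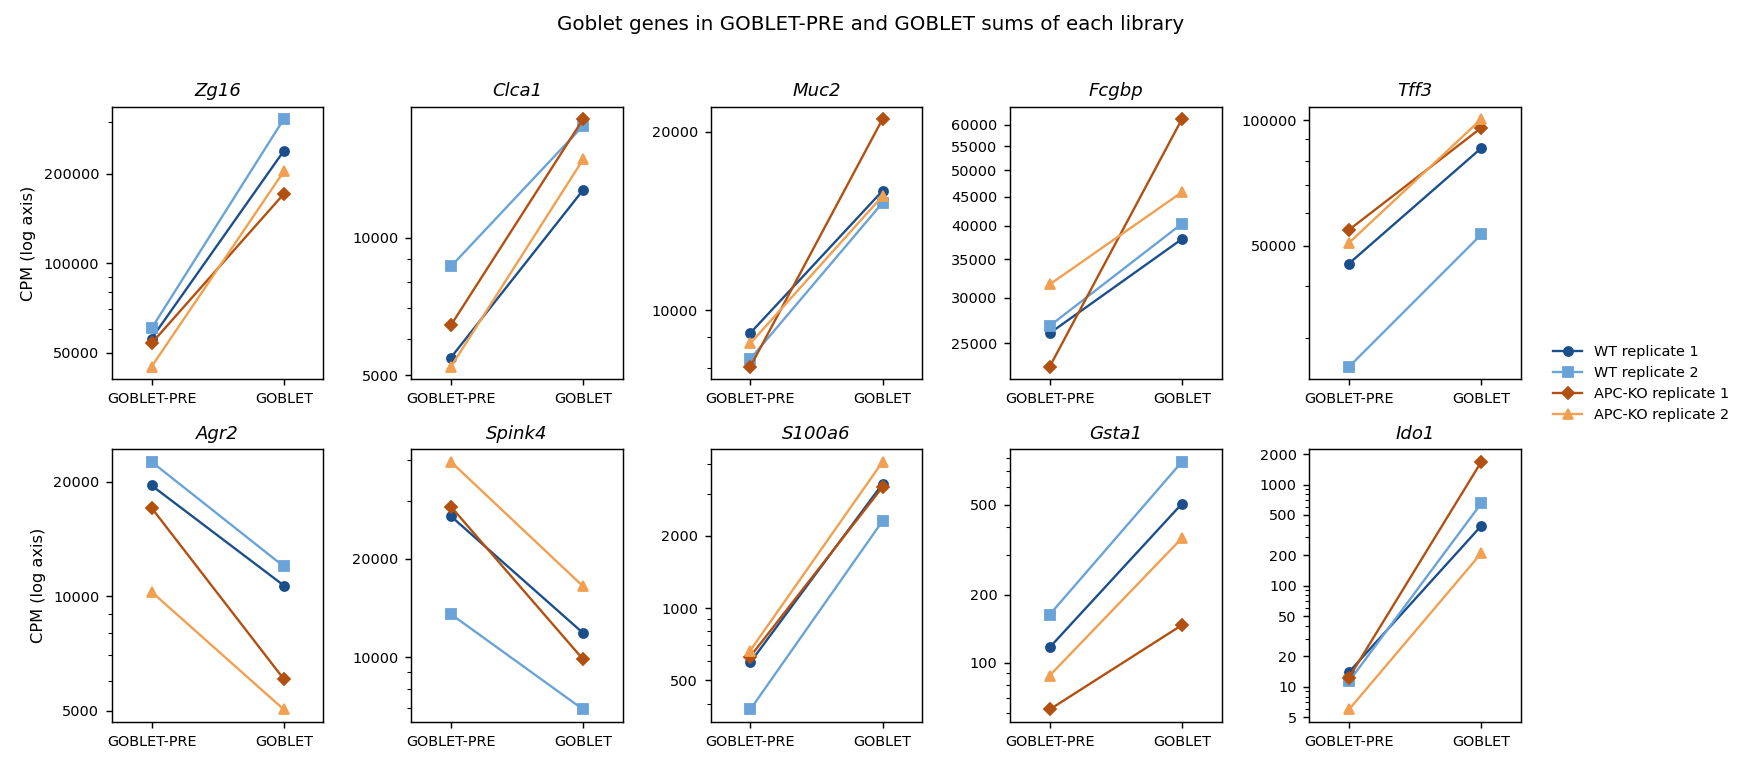
Levels in CPM (log axis, scaled per panel) of 10 goblet genes in the GOBLET-PRE and GOBLET sums, with 1 line per library. Zg16, Clca1, S100a6, Gsta1 and Ido1 were higher in GOBLET in each library, while Agr2 and Spink4 were below GOBLET-PRE in each.

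Single cells varied widely around these sums. The median GOBLET cell gave 22.1%, 29.4%, 11.4% and 18.9% of its UMIs to Zg16, against 4.46%, 4.83%, 4.09% and 3.56% in the median GOBLET-PRE cell. The range over GOBLET cells ran from 0.763% to 46.6% in WT replicate 1 and from 1.95% to 54.4% in WT replicate 2. Of GOBLET-PRE cells, 2.89%, 1.28%, 16.3% and 1.67% lay above the lower quartile of GOBLET. Within GOBLET, cells with more Zg16 also had more Tff3 and S100a6 among their remaining UMIs, with Spearman's rho across cells of 0.70, 0.65, 0.73 and 0.83 for Tff3 and 0.58, 0.58, 0.74 and 0.70 for S100a6. Cytosolic ribosomal proteins ran the other way at -0.40, -0.41 and -0.55 in the 3 larger libraries and at 0.42 over the 28 cells of APC-KO replicate 1. Other mucus genes did not all rise with Zg16. Fcgbp was at -0.081, -0.19, -0.334 and -0.047, and Spink4 at -0.343, -0.295, 0.346 and -0.348. Agr2 was at 0.0103, -0.0117, 0.658 and -0.0781. Clca1 was at 0.124, 0.104, 0.557 and 0.365, and Muc2 at 0.441, 0.391, -0.287 and 0.441. These are descriptions over cells of 1 library each, and Zg16 also followed the UMIs per cell at 0.34, 0.42, 0.81 and 0.23.

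**Figure D2:**
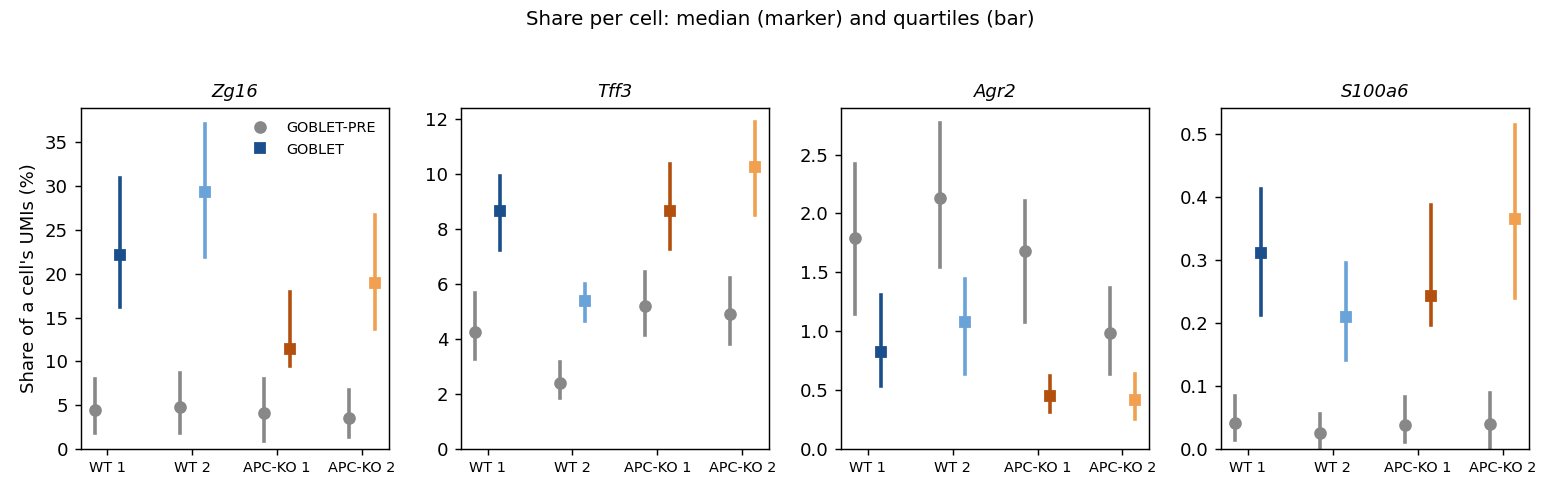
Share of each cell's UMIs in percent given to Zg16, Tff3, Agr2 and S100a6, by library, with the median as a marker and the quartiles as a bar, GOBLET-PRE in grey circles and GOBLET in coloured squares. For Zg16 the medians were 22.1%, 29.4%, 11.4% and 18.9% in GOBLET and under 5% in GOBLET-PRE.

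The machinery behind the mucus was not higher as a whole. Of 28 tested enzymes of mucin O-glycosylation, 2 were higher and 1 lower, with a median log2 difference of 0.22, beside -0.07 over all genes and -0.26 for the list in plain CPM. St3gal4, a sialyltransferase, and B3gnt7, which extends sugar chains on mucins, were higher at 1.64 (SE 0.15) and 1.52 (SE 0.13). Neither reached 2-fold in every library in plain CPM. The mean level of St3gal4 was 468 CPM in ENTERO-PRO against 76.1 CPM in GOBLET, while that of B3gnt7 was 20.5 against 126 CPM. Slc35a1, the Golgi carrier of the sialic acid donor, was lower at -1.41 (SE 0.18). Of 38 genes of folding and stress in the endoplasmic reticulum, none was higher and 5 were lower, namely Pdia4, Pdia5, Pdia6, Sdf2l1 and Hyou1. The list's median was -0.76, and in plain CPM -1.21 with 15 lower. Hspa5, the main chaperone of that compartment, had 1123, 980, 1200 and 914 CPM in GOBLET and 2935, 3351, 2211 and 2572 CPM in GOBLET-PRE, a log2 difference of -0.96 (SE 0.17). Xbp1 and Ern2, a transcription factor and a sensor of the unfolded protein response, differed by 0.27 (SE 0.14) and 0.03 (SE 0.13).

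Of 23 genes of regulated exocytosis, 2 were higher and 2 lower, with a median of 0.29 that turned to -0.22 in plain CPM. Sytl5, a synaptotagmin-like partner of Rab27, was higher at 2.51. Kcnma1, a calcium-activated potassium channel, and Rph3al were lower at -2.40 and -2.10, from at most 4.9 CPM in GOBLET. Of 14 genes of ion transport and mucus hydration, 4 were lower and 1 higher. Guca2a, the precursor of guanylin, which drives chloride and bicarbonate secretion, had 1476, 994, 627 and 958 CPM against 4801, 3338, 3523 and 3484 CPM. Its relative Guca2b, the water channel Aqp1 and the chloride importer Slc12a2 were lower too, at -1.80, -1.67 and -1.85. Slc9a3r1, a scaffold under the brush border, was higher at 1.79.

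Transcription factors of the lineage were near the median gene, with 1 of 29 higher and 2 lower and a median of 0.08, or -0.38 in plain CPM. Atoh1 had 171, 178, 147 and 152 CPM in GOBLET and 146, 139, 137 and 115 CPM in GOBLET-PRE, a log2 difference of 0.77 (SE 0.13). Spdef differed by 0.05 (SE 0.13), Klf4 by 0.47 (SE 0.15) and Creb3l1 by -0.84 (SE 0.14). Sox9, a crypt progenitor factor, and Bhlha15, a factor of secretory cell architecture, were lower at -2.22 and -1.92. Maf was higher at 2.18, from at most 40.8 CPM, but not in every library in plain CPM, and its mean was 136 CPM in ENTERO-PRO against 27.6 CPM in GOBLET.

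Genes of dividing and immature crypt cells were low in both stages. Lgr5, the stem cell receptor, had 4 UMIs in all 717 GOBLET cells. Of 11 stem and progenitor genes tested, 4 were lower and none higher, and of 7 Wnt targets tested, 3 were lower and none higher, with a median of -1.19. Ccnd1, a driver of entry into the cell cycle, had 13.6, 9.20, 14.7 and 19.4 CPM against 99.5, 101, 122 and 105 CPM. Mmp7, a Wnt target that Paneth cells make, was lower at -1.79. The 30 S phase genes summed to between 83.2 and 161 CPM in GOBLET, against 165 to 239 CPM in GOBLET-PRE. The 30 genes of mitosis summed to between 48.1 and 188 CPM against 111 to 177 CPM, and none of the 7 and 4 tested was called. Id1, a target of BMP, the signal of the upper crypt and villus, was 1 of 6 tested in its list and higher at 1.35 (SE 0.13), with 0.89 in plain CPM.

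Cytosolic ribosomal proteins, the parts of the machine that makes protein, were lower as a list. Of 81 tested, 69 were lower and none higher, with a median of -1.52, and of -1.28, -1.56, -2.26 and -1.25 by library. They summed to 41446, 28580, 33417 and 56470 CPM in GOBLET and 141622, 133879, 171140 and 170531 CPM in GOBLET-PRE. Nuclear genes of oxidative phosphorylation, counted the same way, had 0 of 75 on either side and a median of -0.22.

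Immediate early and heat shock genes were also lower, with 12 of 22 tested called and none higher, at a median of -1.85. These genes are known to respond within minutes to growth signals and to the handling of tissue, and the part of handling was not tested. Jun had 74.0, 70.1, 602 and 124 CPM in GOBLET and 1269, 1725, 1532 and 1559 CPM in GOBLET-PRE. Atf3 had 23.4, 37.5, 196 and 43.8 CPM against 745, 1139, 704 and 892 CPM, and Egr1 had 41.9, 70.1, 304 and 103.9 CPM against 766, 1285, 955 and 1118 CPM. For all 3 genes APC-KO replicate 1 was the highest GOBLET library, and the list summed to 4442 CPM there against 1721 to 1824 CPM in the others. Without that library 15 of 23 tested were lower.

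On the higher side, Ido1 (ENSMUSG00000031551, chr8:24584136-24597009, minus strand) had the largest difference of the named genes. Its level was 391, 653, 1680 and 210 CPM in GOBLET and 13.97, 11.3, 12.3 and 5.96 CPM in GOBLET-PRE, a log2 difference of 6.10 (SE 0.21). APC-KO replicate 1 was the highest and APC-KO replicate 2 the lowest GOBLET library, and all 4 lay above every GOBLET-PRE level. After each cell was thinned to 2000 UMIs, 34.4%, 48.9%, 74.1% and 24.7% of GOBLET cells had an Ido1 UMI, against 0.871%, 1.37%, 1.65% and 0.750% of GOBLET-PRE cells and at most 0.402% of EC cells, which carry enteroendocrine genes. The 10% of GOBLET cells with the most Ido1 held 48.9%, 44.9%, 34.99% and 57.8% of its UMIs. S100a6 had 3294, 2305, 3193 and 4067 CPM against 594, 378, 628 and 665 CPM, and at least 96.3% of GOBLET cells had a UMI after thinning, against 45.9% to 58.4% of GOBLET-PRE and 6.20% to 9.92% of EC cells.

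Interferon-stimulated genes had a median difference of 1.22 over 31 tested, with 5 higher and none lower, and 0.78 with 2 higher in plain CPM. The 5 were Ido1, Gbp2, Ifi27l2b, Zbp1 and B2m, of which only Ido1 and Gbp2 kept the call in plain CPM. Ido1 is itself a supplied marker of the name. Gbp2, a guanylate-binding protein that attacks vacuoles of microbes, had 41.9, 26.9, 397 and 58.1 CPM against 8.57, 7.16, 18.5 and 9.94 CPM. B2m, the light chain of class I antigen presentation, had 941, 956, 1621 and 1127 CPM against 574, 532, 768 and 570 CPM. The summed list was 6172, 5774, 10749 and 5245 CPM in GOBLET against 4160, 3314, 3782 and 2887 CPM, so that APC-KO replicate 1 was the highest here too. The medians by library were 0.91, 0.84, 1.40 and 1.14, and without APC-KO replicate 1 the list had 7 higher and 1 lower of 32 tested.

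Krt20, a keratin of differentiated gut cells, had 990, 1009, 1146 and 909 CPM against 340, 372, 261 and 302 CPM, and with Cdh17, a cadherin, it made 2 higher of 27 keratin and junction genes, of which Krt20 alone was called in plain CPM. Of 18 S100, annexin and galectin genes, 4 were higher, namely S100a6, Lgals3, Anxa3 and Anxa4, and in plain CPM the first pair only. Lgals3 had 162, 306, 73.5 and 196 CPM against 11.3, 14.6, 6.17 and 13.9 CPM, and cells named ENTERO-PRO had a mean of 203 CPM. Of 27 genes of glutathione and detoxification, Gsta1, Gsta4 and Sult1b1 were higher and Gpx2 and Gstm2 lower, and Sult1b1 lost its call in plain CPM. Gsta1 (ENSMUSG00000074183, chr9:78230656-78242684, plus strand) had 504, 772, 147 and 356 CPM against 117, 163, 62.3 and 87.9 CPM, and Gsta4 had 1290, 1651, 700 and 921 CPM against 408, 512, 295 and 255 CPM. Mxd1, which opposes Myc at its target genes, had 353, 402, 578 and 520 CPM against 65.5, 84.2, 66.2 and 94.7 CPM. The 2 metallothioneins tested were not called, and 1 of 16 Paneth markers was higher (Clps, at 1.71) and 1 lower (Mmp7). None of the 4 enteroendocrine markers tested was called.

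Enterocyte markers had 7 of 17 tested higher and a median of 1.32, with 4 higher in plain CPM. Fabp1 had a UMI in 10.4%, 8.89%, 37.0% and 10.98% of thinned GOBLET cells, but also in 9.35%, 4.26%, 31.1% and 11.2% of EC cells. Apoa1 was at 11.04%, 13.7%, 25.9% and 12.2% against 9.07%, 9.69%, 11.1% and 12.0%. The GOBLET shares were above those of EC cells except for Fabp1 in APC-KO replicate 2. The widest ratios were those of Fabp1 in WT replicate 2 and Apoa1 in APC-KO replicate 1. The part of free RNA in these shares was not tested. After free RNA was subtracted at a set 5%, 7 of 13 tested in the list were higher, with a median of 1.86. Median depths were 3066, 3374, 6426 and 2413 UMIs in EC cells. The list summed to between 3151 and 4114 CPM in GOBLET, 2285 to 3954 CPM in GOBLET-PRE and 17000 to 24062 CPM in ENTERO-PRO of the 3 libraries with enough such cells. Rbp2, a retinol carrier of absorptive cells, was above EC cells in 3 of 4 libraries, with 26.4%, 31.1%, 29.6% and 29.0% against 14.7%, 11.6%, 40.0% and 17.7%.

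**Figure D3:**
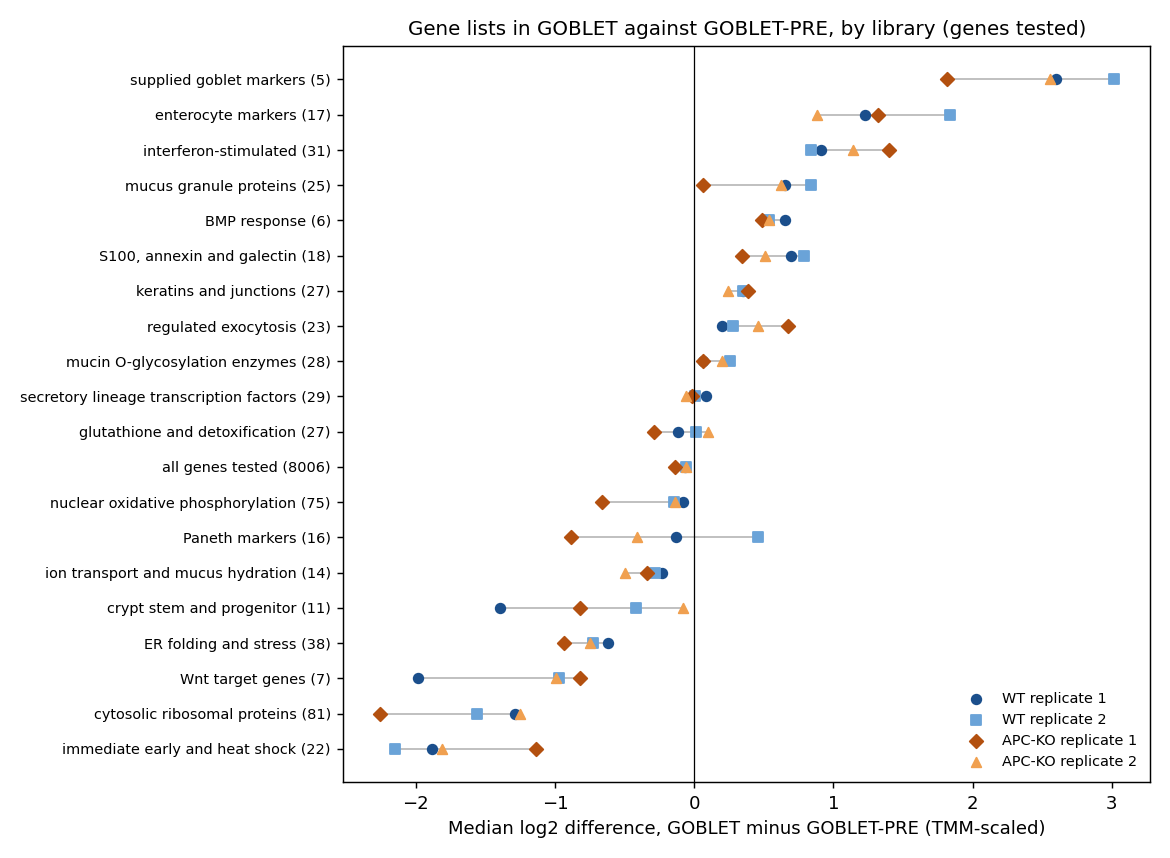
Median log2 difference (TMM-scaled) of GOBLET minus GOBLET-PRE for 19 gene lists and for all genes, by library, with the number of genes tested in brackets and a grey line over the range of the 4 libraries. Ribosomal proteins and immediate early genes lay below 0 in every library and interferon-stimulated genes above 0 in every library, while all genes lay between -0.14 and -0.06.

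Levels of a name were means over the libraries with at least 20 cells of it. APC-KO replicate 1 thus entered only for GOBLET, GOBLET-PRE and EC, and the other names lack it. Set against all 11 other names, 73 of the 4227 genes with at least 20 CPM in GOBLET had a mean level at least 2 times that of the next name (1.73%). GOBLET-PRE was the next name for 57 of them. Among genes with at least 50 CPM the largest ratios were those of Ido1 (67.3 times GOBLET-PRE), Gbp2 (11.8), Cxcl16 (5.9), S100a6 (5.7), Herc6 (4.6) and Zg16 (4.3), followed by Btc and Trim15 at 4.0 each. Without APC-KO replicate 1 the ratios were 40.1 for Ido1, 4.94 for Gbp2, 6.04 for Cxcl16, 5.90 for S100a6, 2.37 for Herc6, 4.65 for Zg16, 3.25 for Btc and 2.51 for Trim15, so that library carried much of the ratios of Ido1, Gbp2, Herc6 and Trim15. Cxcl16 is a chemokine held on the membrane and Btc a ligand of the EGF receptor. Cxcl16 had 61.6, 81.4, 68.6 and 52.0 CPM in GOBLET and a mean of 11.2 CPM in GOBLET-PRE. Of 29 interferon-stimulated genes with at least 20 CPM, 10 were among the 73. Gsta1 was the 1 supplied marker outside the 73, with 245 CPM in ENTERO-PRO against 445 CPM in GOBLET. It met the rule when APC-KO replicate 1 was left out. Without APC-KO replicate 1 the interferon-stimulated genes were 3 of 25, namely Gbp2, Zbp1 and the supplied marker Ido1, and all such genes numbered 51. All genes at that level were not counted in this setting, so no share over all genes stands beside the 3 of 25.

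The second question was the genotype within mature goblet cells. Apc itself was read at 70.3 and 51.7 CPM (WT) and at 103 and 72.3 CPM (APC-KO), but 3' reads outside the floxed part check nothing about the deletion. GOBLET cells made up 3.39% and 7.07% of kept cells in WT and 7.87% and 4.10% in APC-KO. The groups overlapped and the means differed by 0.757 percentage points, with p = 0.667 (exact permutation, two-sided; 0.333 is the smallest p that 2 against 2 allow). As a share of goblet lineage cells (GOBLET with GOBLET-PRE) they were 11.3% and 17.8% in WT and 13.2% and 19.2% in APC-KO, a difference of 1.65 points (exact permutation p = 0.667). Both differences changed sign when single libraries were left out. The 95% exact binomial interval of the share in APC-KO replicate 1 ran from 5.29% to 11.2%, and intervals cover counting error only.

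Of 5974 genes tested with edgeR's quasi-likelihood test, 5 passed an adjusted p of 0.05 (0.0837%), and 669 had an unadjusted p under 0.05. The groups did not overlap in 44.0% of genes, so that separation of 2 libraries from 2 carries little weight. A fit without 1 library leaves a single library in a genotype, so its calls carry little weight too. Without APC-KO replicate 2 none passed, with 559 under an unadjusted 0.05, and without APC-KO replicate 1 or WT replicate 1 there were 21 and 20, including all 5.

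Rab3b (ENSMUSG00000003411, chr4:108879063-108943324, plus strand), a small GTPase of secretory vesicles, had 0 and 2 UMIs in WT and 12 and 72 in APC-KO. As levels these were 0 and 1.42 against 58.8 and 73.4 CPM. It was found in 7 of 28 and 55 of 256 GOBLET cells of the APC-KO libraries, and in 0 of 163 and 2 of 270 of the WT libraries. The ratio of summed UMIs was 78.8, with a 95% exact counting interval of 21.1 to 661, and adjusted p = 6.70e-04 (edgeR). Rab3b passed under every alternative that kept all 4 libraries. In fits without 1 library its log2 difference ran from 5.27 to 8.46, and no value was had without APC-KO replicate 2. GOBLET-PRE cells were at 0.150 and 0 CPM (WT) and at 3.93 and 9.28 CPM (APC-KO).

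Casc4, a Golgi membrane protein also known as Golm2, went from 60.4 and 58.7 CPM in WT to 9.79 and 5.09 CPM in APC-KO, from 49, 83, 2 and 5 UMIs. It fell by 3.41 on the log2 scale (SE 0.41, adjusted p = 0.00461, edgeR), a call lost after cells were thinned to 2000 UMIs. Defa29, a defensin made by Paneth cells, was at 13.6 and 14.9 CPM in WT against 44.1 and 172 CPM in APC-KO. In APC-KO, 1 cell held 6 of 9 Defa29 UMIs of replicate 1 and 40 of 169 of replicate 2. Without those cells the levels were 14.97 and 132 CPM. The log2 difference of Defa29 was 3.02 (adjusted p = 0.0334 by edgeR, SE 0.47), a call lost after free RNA was subtracted. Thinned EC cells had a Defa29 UMI in 2.27%, 4.65%, 2.22% and 16.1%, against 2.45%, 4.44%, 11.1% and 18.8% of GOBLET cells. Mptx1, a pentraxin also known from Paneth cells, stood at 118 and 195 CPM in WT against 34.3 and 16.3 CPM in APC-KO, and fell by 3.10 (SE 0.39, adjusted p = 0.00516, edgeR). In WT, 1 cell held 52 of 96 and 111 of 275. AY761184, whose highest level was 41103 CPM in PANETH, was at 157 and 246 CPM in WT against 68.6 and 50.9 CPM in APC-KO. It fell by 2.00 (SE 0.32, adjusted p = 0.0353, edgeR) and was not among the calls after free RNA was subtracted. Defa29 and AY761184 had their highest level in PANETH and Mptx1 in GOBLET-PRE, beside a Paneth marker sum of 5422, 6474, 3296 and 7663 CPM in GOBLET, and the part of Paneth RNA in these 3 calls was not tested.

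**Figure D4:**
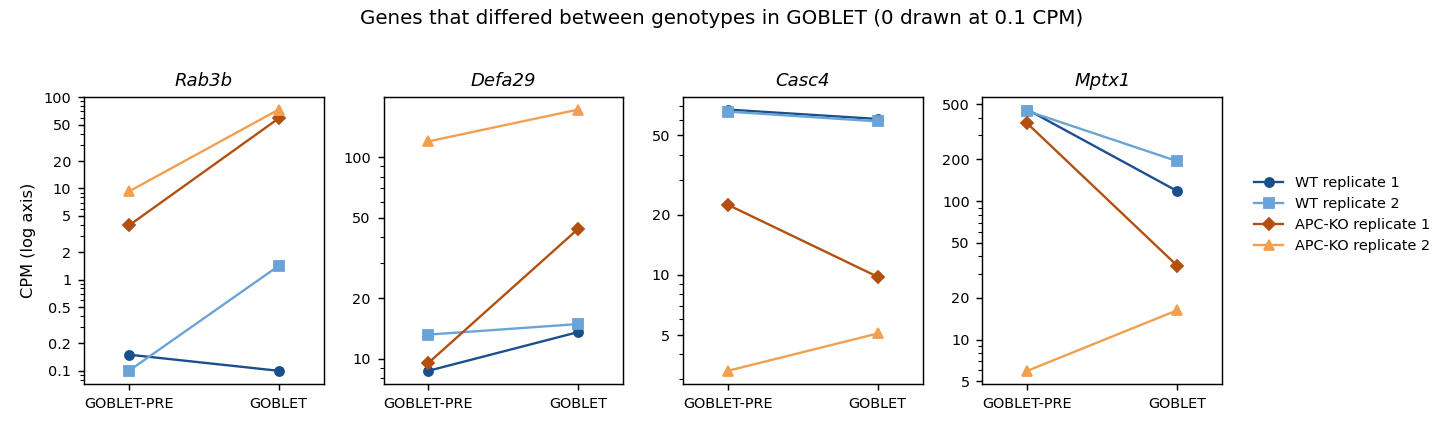
Levels in CPM (log axis, scaled per panel, with 0 drawn at 0.1) of Rab3b, Defa29, Casc4 and Mptx1 in the GOBLET-PRE and GOBLET sums of each library. In GOBLET, Rab3b was at 58.8 and 73.4 CPM in APC-KO against 0 and 1.42 CPM in WT, and Casc4 at 9.79 and 5.09 against 60.4 and 58.7 CPM.

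The goblet markers themselves did not pass. Zg16 differed by -0.70 (SE 0.33, adjusted p = 0.448, edgeR), Clca1 by -0.06 (SE 0.30), Muc2 by 0.06 (SE 0.29), Ido1 by 0.58 (SE 0.61) and S100a6 by 0.22 (SE 0.30). Gsta1 was lower in both APC-KO libraries at -1.42 (SE 0.39, adjusted p = 0.267, edgeR), and Agr2 at -1.21 (SE 0.29, adjusted p = 0.258, edgeR). Among genes with an unadjusted p under 0.01 and no overlap the largest positive differences were those of Rab3b, Defa29, Rsad2, Gbp2 and Fosb and the largest negative ones those of Casc4, Mptx1, Frmd3, Sprr2a3 and Metrnl. Rsad2 had 2.68 with adjusted p = 0.0566 and Gbp2 2.27 with adjusted p = 0.267 (edgeR). None of the Wnt targets or crypt stem genes tested passed, 4 and 5 genes respectively, beside 5 of all 5974 genes (0.0837%). With so small a share passing, lists of this size cannot show an absence of change. In GOBLET-PRE 1 of 10272 genes passed (0.00974%), St6galnac1, a sialyltransferase of mucins, with 1 and 1 UMIs in WT and 19 and 60 in APC-KO. It had 0, 0, 1 and 2 UMIs in GOBLET and was not tested there.

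The third question was whether the genotypes differed in another way in GOBLET than in GOBLET-PRE. In 1 fit over the 8 sums with the library as a block, 13 of 8644 genes had an interaction past an adjusted p of 0.05 by edgeR (0.15%), 11 of them towards higher levels in APC-KO GOBLET. DESeq2's Wald test called 4 of the 13. Of 32 interferon-stimulated genes tested, 4 were among the 13, namely Ifit1, Ifit1bl1, Isg15 and Trim30a. Rsad2, Ddx60, Herc6 and Slfn5, also known interferon-induced genes, were grouped with them after their values were seen.

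Ifit1 (ENSMUSG00000034459, chr19:34640871-34650009, plus strand), which binds foreign RNA, had 29.6 and 14.9 CPM in WT GOBLET and 191 and 38.7 CPM in APC-KO GOBLET. GOBLET-PRE cells were at 54.4 and 20.8 CPM (WT) and at 12.9 and 7.95 CPM (APC-KO). The order of the genotypes was thus opposite in the 2 stages, and the interaction was 3.42 (SE 0.37, adjusted p = 8.58e-17, edgeR). Rsad2, the antiviral enzyme viperin, had 9.86, 6.37, 97.9 and 40.8 CPM in GOBLET and 64.9, 33.7, 26.4 and 23.4 CPM in GOBLET-PRE, an interaction of 3.44 (SE 0.41, adjusted p = 4.23e-13, edgeR). Isg15, a ubiquitin-like modifier, had 206, 86.4, 357 and 109 CPM against 206, 76.5, 69.0 and 42.6 CPM, with 1.42 (SE 0.26). GOBLET minus GOBLET-PRE was 0.50 and 0.84 in WT and 2.51 and 1.71 in APC-KO (TMM-scaled log2). Ddx60, an RNA helicase, had 250, 122, 715 and 332 CPM against 145, 73.2, 88.1 and 87.0 CPM, with 1.33 (SE 0.26).

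These calls rest on few cells. Ifit1 had 24, 21, 39 and 38 UMIs in GOBLET, and 1 of the 28 cells of APC-KO replicate 1 held 11 of 39 Ifit1, 23 of 73 Isg15 and 42 of 146 Ddx60 UMIs. Without that cell the library had 145, 259 and 538 CPM of the 3 genes. Ifit1, Ifit1bl1 and Rsad2 passed under every alternative that kept all 4 libraries. Fits without 1 library leave a single library in a genotype, so only the size of the interaction is given for them. It ran from 2.82 to 4.13 for Ifit1, 1.855 to 3.20 for Ifit1bl1 and 3.18 to 3.98 for Rsad2. No fit was run without the cell named above. Isg15 and Ddx60 lost the call without WT replicate 1, without WT replicate 2, after thinning and with DESeq2. Herc6, Trim30a and Slfn5 lost it without APC-KO replicate 1, among others.

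**Figure D5:**
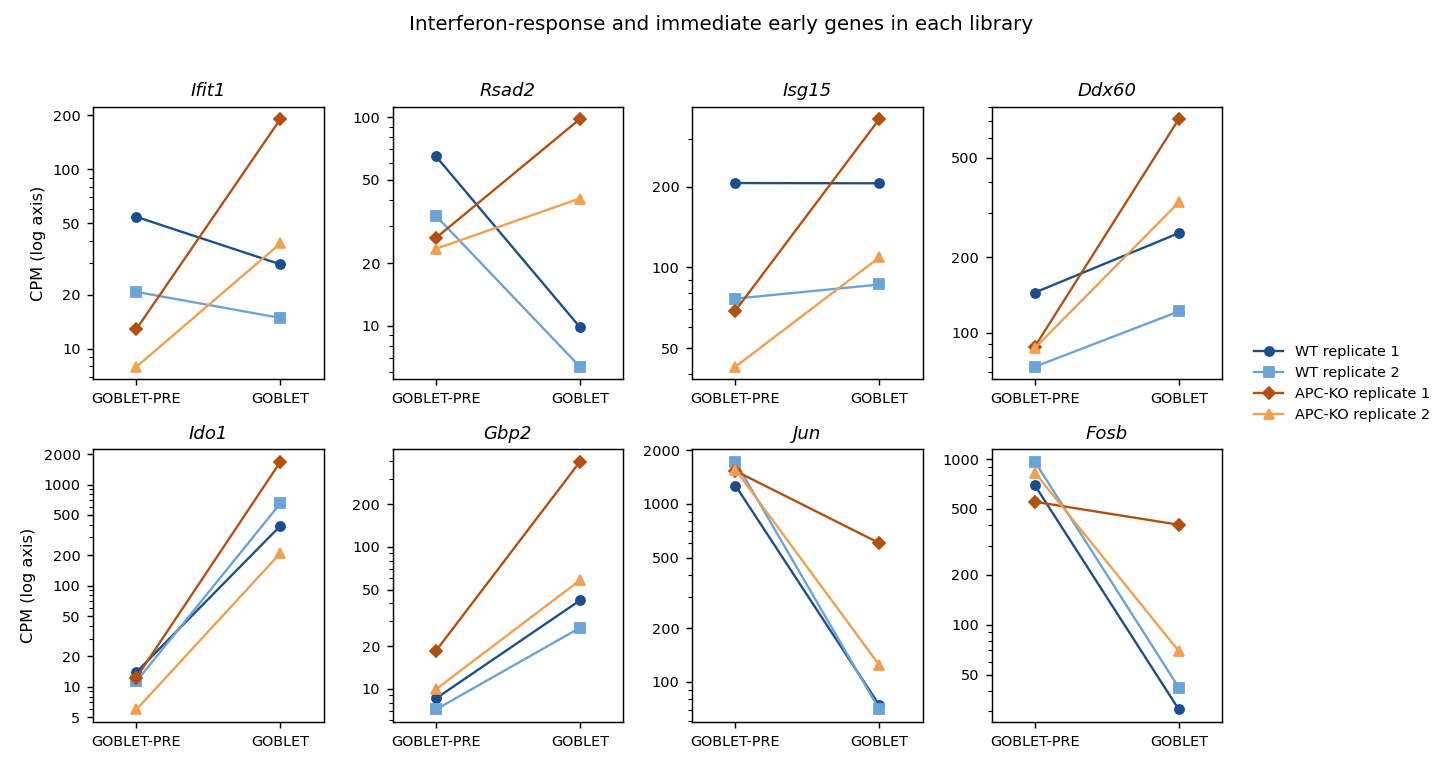
Levels in CPM (log axis, scaled per panel) of 6 interferon-response genes and the immediate early genes Jun and Fosb in the GOBLET-PRE and GOBLET sums, with 1 line per library. Ifit1 and Rsad2 were higher in GOBLET than in GOBLET-PRE in both APC-KO libraries and lower in both WT libraries in plain CPM (with TMM scaling Ifit1 in WT replicate 2 differed by 0.18), and among the GOBLET sums Jun and Fosb were highest in APC-KO replicate 1, at 602 and 402 CPM.

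Jun, Fosb and Areg, a growth factor of the EGF family, also had positive interactions, of 1.53 (SE 0.37), 2.12 (SE 0.37) and 1.99 (SE 0.33). Fosb had 30.8, 41.8, 402 and 69.3 CPM in GOBLET and 695, 964, 553 and 829 CPM in GOBLET-PRE, so APC-KO replicate 1 decided its size, and Fosb and Jun lost the call without that library, without WT replicate 1 and without WT replicate 2. Areg lost it without WT replicate 1 and without WT replicate 2. Chgb, a granin of enteroendocrine cells, had an interaction of -2.14, but 1 cell of WT replicate 2 held 167 of the 180 UMIs of that library. Without WT replicate 2 its interaction was 0.92, of opposite sign. The call was lost after thinning, after free RNA was subtracted, without APC-KO replicate 2 and with DESeq2. The thirteenth gene, with a model symbol, had an interaction of -4.24.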

How the data were processed

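Single-cell 3' RNA libraries from 4 samples were used. Per the submitters' processing notes, the authors used Cell Ranger 3.0.2, STAR and the mm10 genome, and they deposited raw UMI counts per gene and barcode (31053 genes) and per-cell tables with cell names, UMI and gene numbers and percent of mitochondrial UMIs. Cells were those in the authors' tables, which hold 901 to 2999 genes and under 7% mitochondrial UMIs per cell. No doublet caller was run. No column of per-sample values was left unmapped (0).

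UMIs were summed per library and name, where a name had at least 20 cells. Sums were scaled by TMM and filtered with filterByExpr. Genotypes were compared with edgeR 4.0.16 (quasi-likelihood test, Benjamini-Hochberg adjustment, threshold 0.05) in R 4.3.3, with DESeq2 1.42.0 as an alternative. GOBLET was compared with GOBLET-PRE by log2 CPM differences (prior count 2), with SEs of the fitted model and no p. Depth per library was 54230249 to 61032126 UMIs, of which 5.15% to 50.3% lay in kept cells. GOBLET sums held 204205 to 1412843 UMIs, and this sets the precision of low genes. Detection was compared after thinning cells to 2000 UMIs. Free RNA came from barcodes with 1 to 50 UMIs. Where it was subtracted, the part taken was set at 5% for every library, so calls kept or lost depend on that setting.

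Gene positions are those of GENCODE on mm10, with 99.6% of gene IDs matched. Members and gene lists were chosen with earlier results of these data known. Named genes were the supplied and classical markers, the largest differences above a level minimum, genes past the threshold, and the most abundant and most different members of each list. Other called list members and AY761184, which has a model symbol, were named after their values were seen. On simulated data with log2 changes of 2, 121 of 166 changed genes were called for genotype in GOBLET and 74 of 200 for the interaction. Same-numbered libraries did not deviate together (correlation -0.0217 in GOBLET and -0.00935 in GOBLET-PRE). A member of the exocytosis list is not reported here.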

Additional observations from a re-analysis of the deposited data

Results flagged for a closer look

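The effect of genotype differed between GOBLET and GOBLET-PRE in 13 genes by the interaction term of the edgeR fit. On the log2 scale the difference between the effects (GOBLET minus GOBLET-PRE) was 3.44 for Rsad2, 3.42 for Ifit1, 3.31 for Slfn5, 2.58 for Trim30a, 2.42 for Ifit1bl1, 1.72 for Herc6, 1.42 for Isg15 and 1.33 for Ddx60, all known as interferon-induced genes. It was 2.12 for Fosb, 1.53 for Jun and 1.99 for Areg, which are induced early after stimulation. It was -2.14 for Chgb, where 1 cell held 167 of 180 UMIs in WT replicate 2, and -4.24 for 2010109I03Rik.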

How the results depend on the processing

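Counts of genes higher and lower in GOBLET than in GOBLET-PRE (217 and 285) became 99 and 185 in cells thinned to 2000 UMIs, 478 and 639 at 1.5-fold and 100 and 625 in plain CPM, an alternative chosen after seeing the data. With every gene of at least 1 count 448 were lower. Leaving out 1 library gave 233 to 324 higher and 328 to 410 lower. Of 24 named genes none changed sign under these settings, and 10 of 192 values moved by more than the SD between libraries. At a ratio of 1.5 to the next name, 158 genes were highest in GOBLET in place of 73, and leaving out 1 library gave 51 to 93.

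The 5 genotype calls in GOBLET became 79 with every gene, 3 after subtraction of free RNA and 10 in plain CPM, and 0 to 21 without 1 library. The 1 call in GOBLET-PRE became 280 with every gene, 9 after thinning, 0 by edgeR after subtraction of free RNA (787 at an unadjusted p under 0.05), 38 with DESeq2 and 7 to 64 without 1 library. With the replicate number as a block the counts were 73 in GOBLET and 110 in GOBLET-PRE, but the numbers did not pair the libraries. The 13 interaction calls became 6 after thinning, 21 after subtraction of free RNA, 4 with DESeq2 and 32 in plain CPM. Leaving out 1 library gave 4 to 198, the highest without APC-KO replicate 2 (53 positive and 145 negative). The interaction of Chgb ran from -3.94 to 0.92 without 1 library, with 0.92 without WT replicate 2.

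The difference in the GOBLET share of kept cells ran from -1.13 to 2.64 points without 1 library, with -1.08 without WT replicate 1 and -1.13 without APC-KO replicate 1. That of goblet lineage cells ran from -1.61 to 4.90, with -1.61 without WT replicate 1 and -1.34 without APC-KO replicate 2. The causes of these changes were not tested. With 2 libraries a group and 28 GOBLET cells in APC-KO replicate 1, low genes had few UMIs.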
